A study of Mus musculus with 20 samples.

Results

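The genes of the mitochondrial respiratory chain and ATP synthase were followed in the epididymal fat pad of C57BL6/J males, an inbred laboratory mouse, after 2, 4, 6 or 14 days of high-fat diet and on normal chow at day 0. Members were chosen by symbol: names starting with Nduf, Uqcr or Atp5, Cyc1, Sdha to Sdhd, names of Cox followed by 4 to 8 and a letter, and the mitochondrially encoded (mt-) protein-coding genes, without pseudogene symbols and with a mean of at least 5 CPM, that is, counts per gene scaled to a common library total, over all libraries. This left 101 of 111 candidate genes, among 15254 genes tested and 39179 gene IDs in the table: 88 encoded in the nucleus and 13 in the mitochondrial genome. The nuclear members were 36 subunits and 8 assembly factors of complex I, the 4 subunits of complex II, 9 of complex III, 14 of complex IV and 17 genes of complex V. The mitochondrially encoded members comprised 7 subunits of complex I, 1 of complex III, 3 of complex IV and 2 of complex V. Ndufaf6 (5.19 CPM), Atp5s (6.95 CPM) and Ndufaf5 (8.94 CPM) lay just inside the limit, and Cox4i2 (4.01 CPM), Cox7a1 (3.92 CPM) and Cox6b2 (1.43 CPM) just outside. Each of the 5 groups held 4 libraries made from total RNA of epididymal fat, which the labels call biological replicates; every diet day shared the same 4 chow libraries as its control, taken at day 0.

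Complexes I, III and IV pass electrons from NADH to oxygen and pump protons across the inner mitochondrial membrane, complex II feeds in electrons from succinate without pumping, and complex V, the ATP synthase, uses the proton gradient to make ATP. Most subunits are made in the cytosol from nuclear genes and imported, while a small set of core subunits is transcribed inside the mitochondrion from long RNAs that are cut into single messages, so the complexes need products of both genomes. White fat cells use this chain to support lipid synthesis and adipokine secretion, and brown fat cells, which carry many more mitochondria, use it to make heat.

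Total counts ran from 1916829 (day 2 replicate 1) to 38832429 (chow replicate 3). The fat cell markers were abundant in every library: the 9 markers, adiponectin, leptin, perilipin and others, summed to 30096 to 50190 CPM in chow libraries. Chow replicate 4 stood apart. It held 213 CPM of epididymal and ductal epithelial markers, where chow replicates 1 to 3 held 8.43 to 14.8 CPM, and had the lowest sum of fat cell markers. Results are therefore also given without chow replicate 4 and without the shallow day 2 replicate 1. In whole tissue, fewer cells of a type and less RNA per cell cannot be told apart.

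The nuclear genes of the chain sat higher on day 2 of the diet, less so on days 4 and 6, and back near chow on day 14. Their median log2 change against chow was 0.30 after 2 days, 0.12 after 4, 0.16 after 6 and -0.02 after 14, beside medians between -0.03 and -0.01 over all 15254 genes. On day 2, 97 of the 101 members had a positive log2 change, on day 4 there were 81, on day 6 there were 91 and on day 14 there were 41; over all genes the shares with a positive change were 45.7%, 48.3%, 48.8% and 48.7%. Single genes rarely passed the test. At an adjusted p under 0.05 (edgeR quasi-likelihood test, Benjamini-Hochberg over all genes), 7 members rose on day 2 and none fell (6.93% of members called, against 4.39% of all genes, 2.43% higher and 1.96% lower). On day 4, 7 rose and 1 fell (7.92% of members, against 35.3% of all genes, 18% higher and 17.3% lower). Day 6 had 1 that rose and none that fell (0.99% of members, against 3.45% of all genes, 1.99% higher and 1.46% lower). Day 14 had none called (against 1.18% of all genes), with 2 members at an unadjusted p under 0.05 (against 18% of all genes), 0 called by DESeq2 and 0 by limma-voom. On day 4 the share of members called was thus well below that of all genes, while the shares on days 2 and 6 were close to it or rested on a single gene. The 4 comparisons share their chow libraries, so they are not independent of each other.

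**Figure D1:**
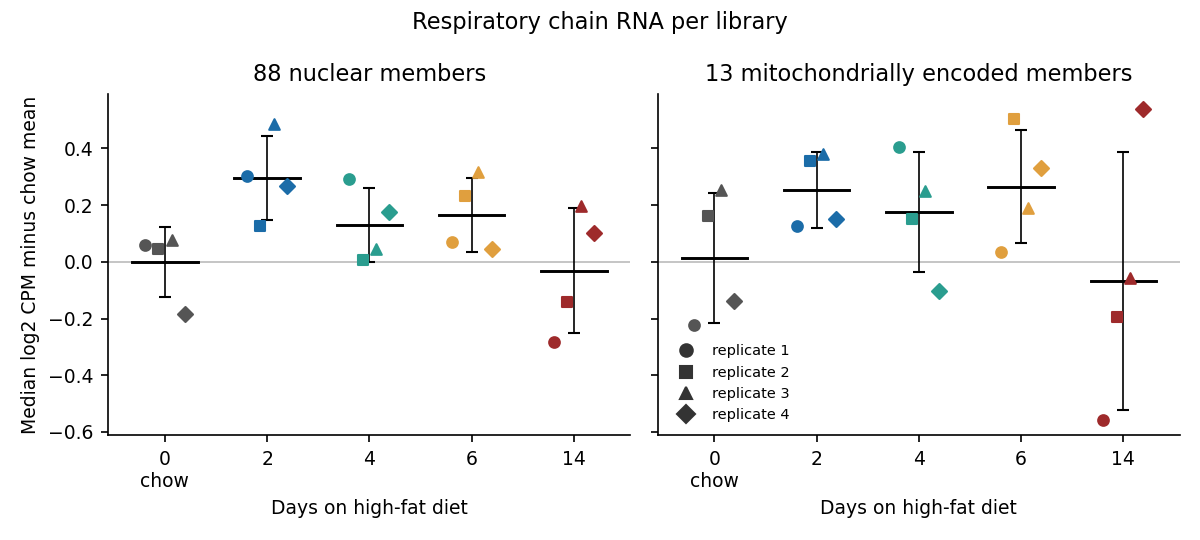
Median log2 CPM of the 88 nuclear (left) and 13 mitochondrially encoded (right) members in each library, minus the gene's chow mean, by days on high-fat diet (chow at 0). Symbols are replicates, horizontal lines group means and bars the SD over 4 libraries; all 4 day 2 libraries (0.13 to 0.49) lie above all 4 chow libraries (-0.18 to 0.08) for nuclear members, and the groups overlap for mitochondrially encoded members.

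Library by library, the nuclear median relative to the chow mean was 0.30, 0.13, 0.49 and 0.27 in the 4 day 2 libraries, against 0.06, 0.05, 0.08 and -0.18 in the 4 chow libraries. The groups did not overlap, and chow replicate 4 was the lowest of its group. On day 4 the values were 0.29, 0.00, 0.05 and 0.17, on day 6 they were 0.07, 0.23, 0.32 and 0.05, and on day 14 they were -0.28, -0.14, 0.20 and 0.10, so the day 4, day 6 and day 14 libraries overlapped those on chow. On day 14 no single member lay entirely above or entirely below chow, as 5.28% and 4.65% of all genes did. Many nuclear members had their highest and lowest levels in the same libraries. Day 2 replicate 3 had the highest level of all 20 libraries in 60 of 88 nuclear members, and day 14 replicate 1 had the lowest in 52. Chow replicate 4 was the lowest chow library in 73 of 88, and day 6 replicate 3 the highest of its group in 70. Within a group, the SD of log2 CPM had a median of 0.19 for nuclear members, 0.32 for mitochondrially encoded members and 0.25 for all genes tested.

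The nuclear RNA of the chain made up 1.497% ± 0.18 of all counts on day 2, against 1.28% ± 0.05 on chow (SD, n = 4 each). It was 1.32% ± 0.13 on day 4, 1.32% ± 0.09 on day 6 and 1.18% ± 0.15 on day 14. Without chow replicate 4 and day 2 replicate 1, the nuclear medians were 0.26 after 2 days, 0.06 after 4, 0.11 after 6 and -0.08 after 14. The edgeR fit then called 2 members on day 4 and 0 on each of the other days, where it called 0.0457% of all genes on day 2, 26% on day 4 and 0.0196% on day 6. With library totals alone as the scale, the median change over all genes lay between -0.14 and -0.10. On that scale the nuclear medians were 0.20, 0.02, 0.03 and -0.12, that is, above the median of all genes on days 2, 4 and 6. The calls of day 4 split into 3 higher and 7 lower instead of 7 and 1, where the median of all genes was -0.13. The shares of all genes called higher and lower in that fit are not given here, so this split is no result about the members alone. In the libraries themselves, summed fat cell markers lay at 43968 to 52294 CPM on day 2, against 30096 to 50190 CPM on chow, with overlap and 1 of 9 markers called. Macrophage markers summed to 617 to 1017 CPM on day 2, against 1096 to 1318 CPM on chow; 0 of 9 had a positive log2 change (median -0.39) and none was called by edgeR. Summed mesothelial markers were at 123 to 186 CPM on day 2 against 390 to 508 CPM on chow; on day 2, 8 of 9 mesothelial markers fell and none rose. On day 4, markers of dividing cells summed to 51.6 CPM in replicate 1 and 425 to 526 CPM in the other 3 libraries, against 12.6 to 37.8 CPM on chow, and replicate 1 was the highest of its group in 61 of 88 nuclear members. The part of these cell types in the nuclear medians was not tested.

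**Figure D2:**
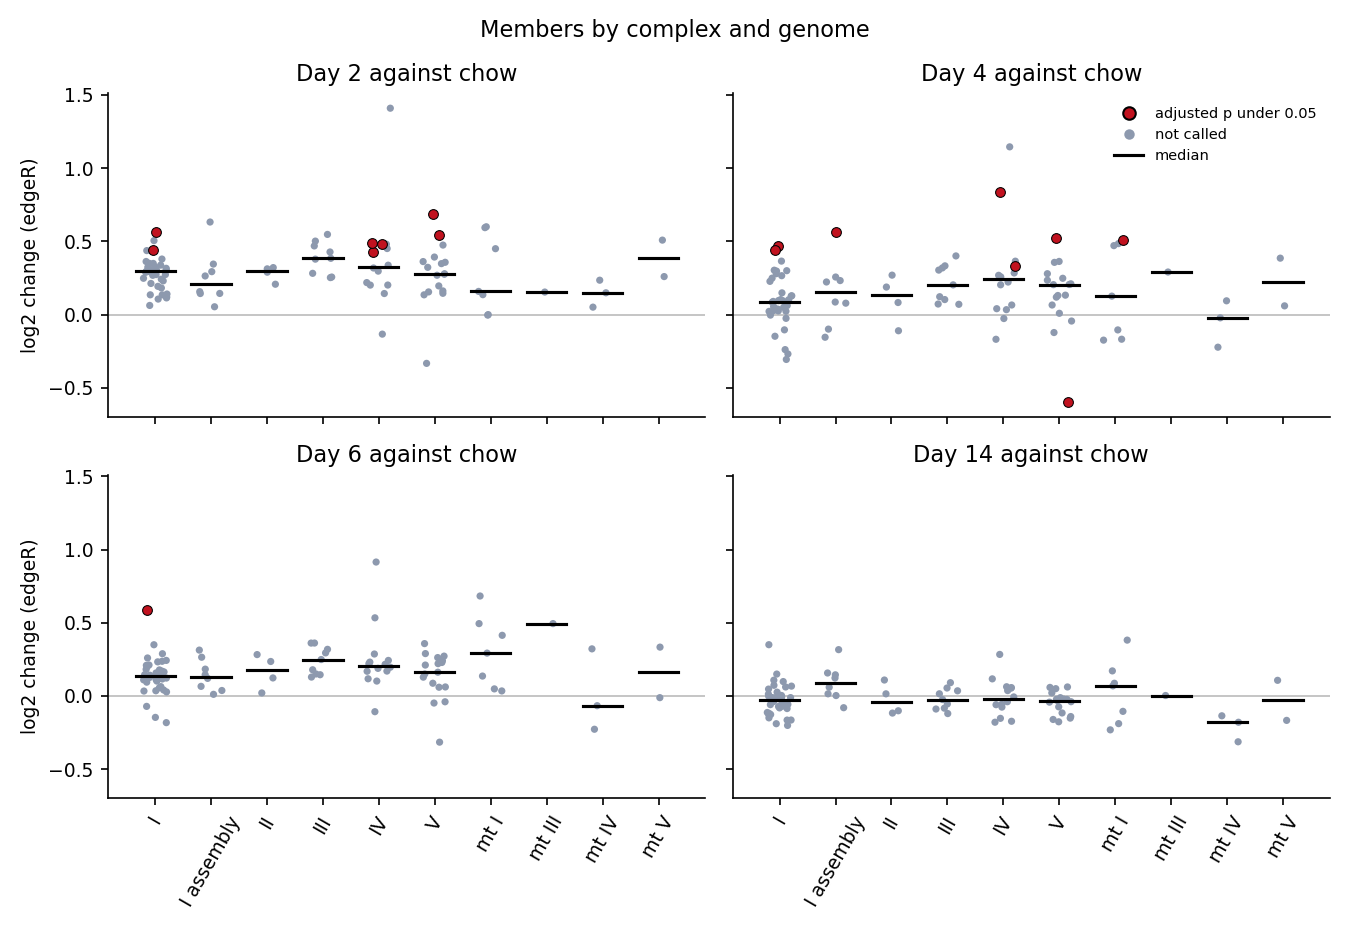
log2 change against chow (edgeR fit) of each of the 101 members on days 2, 4, 6 and 14, by complex; "mt" marks mitochondrially encoded subunits, red points passed an adjusted p under 0.05 and black lines are medians. On day 2 every nuclear class has a median between 0.21 and 0.38, and on day 14 every nuclear class lies between -0.04 and 0.09.

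Complex I is the entry point for electrons from NADH and the largest complex. All 36 nuclear subunits had a positive log2 change on day 2, with a median of 0.29, and 2 of them, Ndufb6 and Ndufv3, rose. Ndufb6, an accessory subunit of the membrane arm, measured 63.1, 45.1, 63.2 and 64.4 CPM in day 2 libraries, against 44.8, 37.8, 40.6 and 35.5 CPM in chow libraries. All day 2 libraries lay above chow, though replicate 2 only just. Its exons overlap Smim27 on the other strand, so its counts are uncertain. The log2 change came to 0.56 ± 0.15 (SE), with an adjusted p = 0.0405 (edgeR quasi-likelihood, Benjamini-Hochberg). Ndufv3, a small subunit of the NADH-oxidizing module, measured 151, 144, 149 and 138 CPM on day 2, against 118, 106, 115 and 88.9 CPM on chow. The day 2 values were tight and did not overlap chow, with a log2 change of 0.44 ± 0.11 (edgeR quasi-likelihood, Benjamini-Hochberg adjusted p = 0.0356). In all, 26 of 101 members had day 2 libraries entirely above chow and none entirely below, where 5.47% of all genes were entirely above and 7.26% entirely below.

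Ndufa8, a subunit of the complex I membrane arm that faces the intermembrane space, was the member with the smallest adjusted p on any day. It measured 92.1, 100.2, 97.9 and 107 CPM in day 4 libraries, against 79.6, 69.0, 76.1 and 63.0 CPM in chow libraries. The groups were well apart, with a log2 change of 0.47 ± 0.12 (edgeR quasi-likelihood, Benjamini-Hochberg adjusted p = 0.00586). Of the 16 calls of members against chow, Ndufa8 on day 4 alone was kept in each of the 8 fits that left out 1 library and in each of the other 12 alternatives run; it had an adjusted p = 0.0203 without chow replicate 4 and day 2 replicate 1 (edgeR quasi-likelihood, Benjamini-Hochberg). On day 14 it was back at 67.5, 66.5, 81.9 and 82.1 CPM. Ndufa11, another membrane-arm subunit, measured 56.4, 66.0, 55.9 and 74.7 CPM on day 4, against 55.1, 44.9, 45.5 and 41.8 CPM on chow, so the groups did not overlap but nearly met. It rose by 0.44 ± 0.15 on the log2 scale (edgeR quasi-likelihood, Benjamini-Hochberg adjusted p = 0.029). Its exons overlap those of Vmac on the other strand, and the strand setting of the counting is not given in the sources used here. The other nuclear subunits of complex I had a wide range on day 4, from -0.31 for Ndufa5 to 0.36 for Ndufb6 among those not called, with a median of 0.09 over all 36.

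On day 6 the single call was Ndufb3, a membrane-arm subunit whose loss of function causes complex I deficiency in people. It measured 96.2, 124, 117 and 93.7 CPM on day 6, against 72.3, 79.2, 74.4 and 61.1 CPM on chow. No day 6 library reached down to chow, and the log2 change was 0.59 ± 0.14 (edgeR quasi-likelihood, Benjamini-Hochberg adjusted p = 0.0397). Ndufb3 had 103, 100.2, 111 and 92.4 CPM on day 2, also entirely above chow, with a log2 change of 0.50 ± 0.14 that did not pass (edgeR quasi-likelihood, Benjamini-Hochberg adjusted p = 0.0503). Over members, 12 were entirely above chow on day 6 and none entirely below, where 6.2% of all genes were above and 5.74% below. Ndufs8, an iron-sulfur subunit of the arm that hands electrons to coenzyme Q, had the smallest adjusted p of the members in the test of any difference among the 5 groups (edgeR quasi-likelihood, Benjamini-Hochberg adjusted p = 0.0215). It measured 61.1, 54.8, 56.7 and 50.2 CPM on chow, 72.3, 60.5, 84.8 and 63.8 CPM on day 2, 69.4, 58.4, 62.8 and 69.1 CPM on day 4, 60.7, 67.3, 68.0 and 56.8 CPM on day 6, and 45.3, 46.8, 57.2 and 51.9 CPM on day 14. Its day 2 libraries overlapped chow only through replicate 2, and its day 14 libraries overlapped chow.

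Among the 8 assembly factors of complex I, Ndufaf4, which acts in early assembly of the complex, measured 28.9, 17.9, 23.5 and 27.4 CPM on day 4, against 18.5, 16.7, 13.7 and 18.1 CPM on chow. Replicate 2 of day 4 sat within the chow range, and the log2 change was 0.56 ± 0.20 (edgeR quasi-likelihood, Benjamini-Hochberg adjusted p = 0.037). The other 7 assembly factors had log2 changes on day 4 from -0.16 (Ndufaf3) to 0.26 (Ndufaf6), none of them called. Of 40 tested assembly factors of the 5 complexes outside the symbol rule, 15 rose and 3 fell on day 4 (18% and 17.3% of all genes), 2 rose on day 2, 1 rose on day 6 and none was called on day 14. Atpaf2, which assembles the catalytic head of the ATP synthase, lay at 78.7 to 103 CPM on day 2, 82.4 to 107 CPM on day 4 and 74.9 to 99.5 CPM on day 6, against 50.6 to 71.7 CPM on chow. It rose on each of these days, with log2 changes of 0.68 ± 0.13, 0.70 ± 0.13 and 0.64 ± 0.13. Cox15, which makes the heme A of cytochrome c oxidase, rose on day 4 by 0.55 ± 0.13 (edgeR quasi-likelihood, Benjamini-Hochberg adjusted p = 0.00372).

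Complex II, which also belongs to the citrate cycle, had no member called by edgeR on any of the 4 days. Its 4 genes lay between 0.21 and 0.32 on the log2 scale on day 2, between -0.11 and 0.27 on day 4, between 0.02 and 0.28 on day 6 and between -0.12 and 0.11 on day 14. Sdha, the flavoprotein that oxidizes succinate, measured 604, 573, 804 and 638 CPM on day 2, against 587, 573, 641 and 470 CPM on chow, and the 2 groups overlapped (log2 change 0.21 ± 0.15; edgeR quasi-likelihood, Benjamini-Hochberg adjusted p = 0.406). Complex III, which passes electrons from coenzyme Q to cytochrome c, likewise had no call by edgeR, although all 9 nuclear genes had a positive change on days 2, 4 and 6 and its day 2 median, 0.38, was the highest of the nuclear classes. Uqcrc1, a core protein of complex III, measured 301, 243, 346 and 299 CPM on day 2, against 242, 204, 234 and 179 CPM on chow. The groups touched but did not overlap, and the log2 change of 0.47 ± 0.14 did not pass (edgeR quasi-likelihood, Benjamini-Hochberg adjusted p = 0.0619). DESeq2 and limma-voom with sample quality weights each called Cyc1, Uqcr11, Uqcrc1 and Uqcrq higher on day 2. Cyc1, cytochrome c1, had the largest day 2 change of the complex at 0.55 ± 0.17 (edgeR quasi-likelihood, Benjamini-Hochberg adjusted p = 0.0679). Cycs, the mobile electron carrier cytochrome c that links complexes III and IV, rose on day 4 to 90.4 to 145 CPM, against 68.4 to 95.2 CPM on chow (log2 change 0.62 ± 0.22; edgeR quasi-likelihood, Benjamini-Hochberg adjusted p = 0.0359).

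In complex IV, cytochrome c oxidase, which reduces oxygen to water, Cox5b, Cox7c and Cox6b1 rose on day 2, and Cox6b1 and Ndufa4l2 on day 4. Cox5b, a zinc-binding subunit on the matrix side, measured 201, 182, 242 and 205 CPM on day 2, against 173, 134, 164 and 122 CPM on chow. Every day 2 library lay above every chow library, and the log2 change was 0.48 ± 0.12, with the smallest adjusted p of the members on that day (edgeR quasi-likelihood, Benjamini-Hochberg adjusted p = 0.0314). Cox7c measured 120, 111, 148 and 123 CPM on day 2, against 92.9, 88.1, 96.0 and 81.1 CPM on chow, also without overlap (log2 change 0.49 ± 0.12; edgeR quasi-likelihood, Benjamini-Hochberg adjusted p = 0.0333). Both genes have near-identical pseudogenes, which share 45.1% of the transcript of Cox5b and 32.9% of that of Cox7c at 97% identity or more, so their counts are uncertain. Cox6b1, which joins the oxidase into dimers, had no such copy among the annotated transcripts searched. It measured 256, 227, 291 and 255 CPM on day 2 and 250.3, 216, 237 and 262 CPM on day 4, against 204, 206, 196 and 161 CPM on chow. Neither day overlapped chow, with log2 changes of 0.42 ± 0.12 on day 2 (adjusted p = 0.0498, edgeR quasi-likelihood with Benjamini-Hochberg) and 0.33 ± 0.12 on day 4 (edgeR quasi-likelihood, Benjamini-Hochberg adjusted p = 0.0375).

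**Figure D3:**
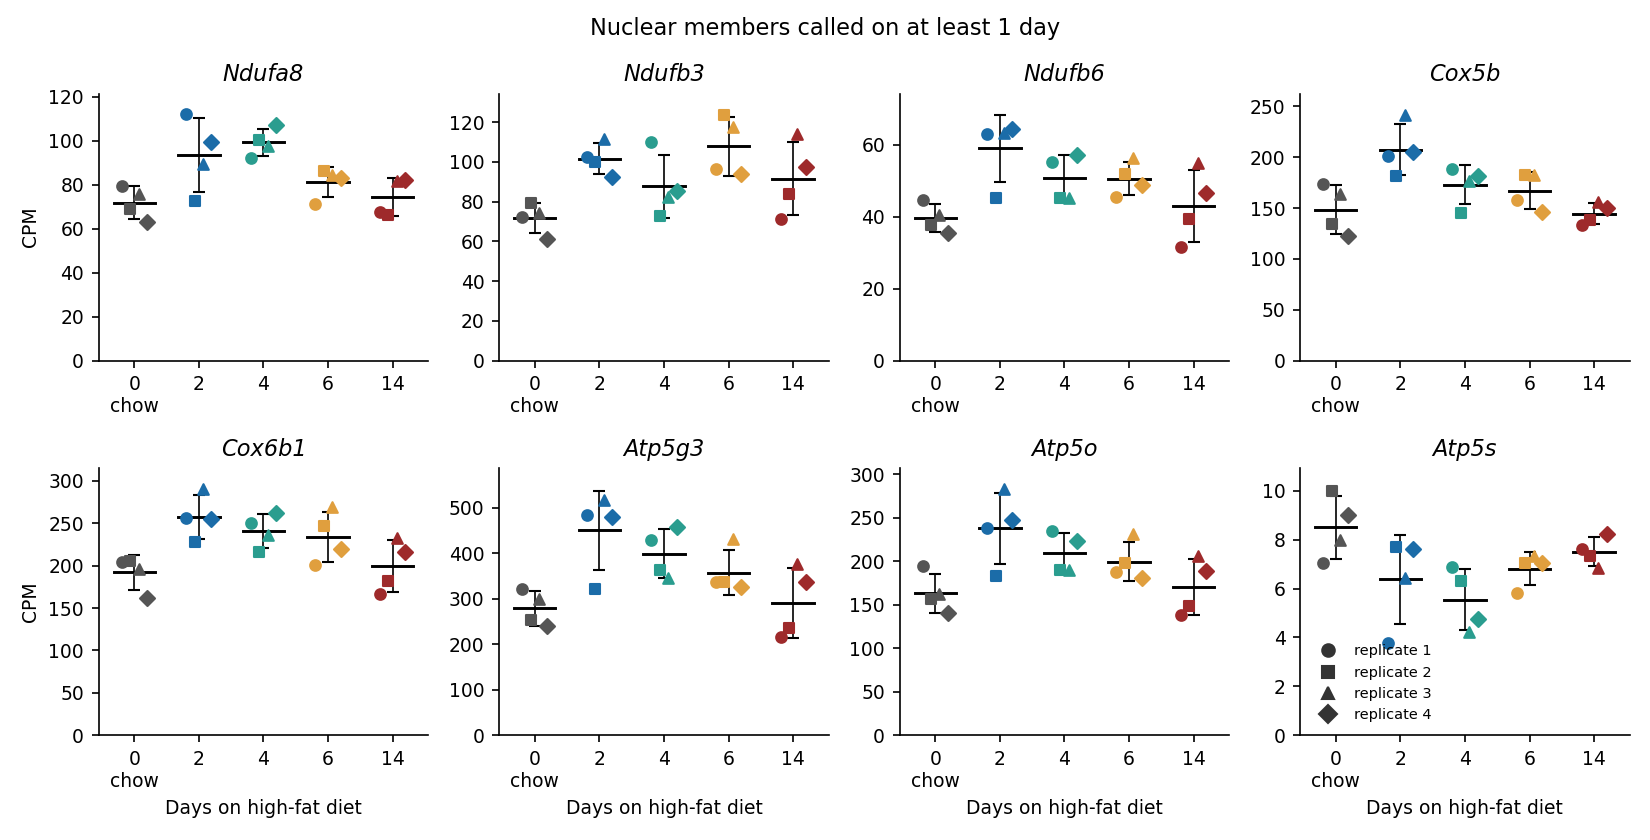
CPM of 8 nuclear members called on at least 1 day, by days on high-fat diet (chow at 0); symbols are replicates, lines group means and bars the SD over 4 libraries. The 4 day 4 libraries of Ndufa8 (92.1 to 107 CPM) lie above all chow libraries (63.0 to 79.6 CPM), and Atp5s is the 1 gene shown that lies lower on day 4 (4.22 to 6.87 CPM) than on chow (7.04 to 9.997 CPM).

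In complex V, Atp5g3 and Atp5o rose on day 2, Atp5g3 rose again on day 4, and Atp5s fell on day 4. Atp5g3 encodes the c subunit of the membrane ring that turns as protons pass; it had the largest log2 change of the called members on day 2. It measured 483, 321, 516 and 479 CPM on day 2, against 321, 254, 299.6 and 240.2 CPM on chow; 3 of the 4 day 2 libraries lay far above chow, and replicate 2 was level with the highest chow library. The log2 change was 0.69 ± 0.18 (edgeR quasi-likelihood, Benjamini-Hochberg adjusted p = 0.0379). On day 4 it measured 429.8, 364, 345 and 458 CPM, above every chow library, with a log2 change of 0.52 ± 0.18 (edgeR quasi-likelihood, Benjamini-Hochberg adjusted p = 0.0299). Mouse has 3 nuclear genes for the same mature c subunit. The other 2, Atp5g1 and Atp5g2, had log2 changes of 0.16 ± 0.11 and 0.13 ± 0.11 on day 2, and edgeR called neither on any day, while limma-voom with sample quality weights called Atp5g1 higher on day 4, as did edgeR without day 4 replicate 1. Atp5o, which links the catalytic head to the stator stalk, measured 238, 183, 282 and 247 CPM on day 2, against 194, 156, 162 and 140.5 CPM on chow (log2 change 0.54 ± 0.15; edgeR quasi-likelihood, Benjamini-Hochberg adjusted p = 0.0423). Replicate 2 of day 2 lay below the highest chow library. The exons overlap 2 annotated antisense genes and, on the same strand, another protein-coding gene also named Atp5o, so the counts are uncertain.

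Atp5s, a coupling factor also called factor B, was the 1 member that fell on any day in the edgeR fit with TMM scaling. On day 4, Cox7a2l was also called lower by DESeq2 and with DESeq2 size factors, limma-voom with sample quality weights called 5 members lower, and edgeR without day 4 replicate 1 called 5 lower and 4 higher. The shares of all genes called in these fits are not given here. Atp5s measured 6.87, 6.30, 4.22 and 4.77 CPM on day 4, against 7.04, 9.997, 7.97 and 9.005 CPM on chow. The groups did not overlap but nearly met, and the log2 change was -0.60 ± 0.18 (edgeR quasi-likelihood, Benjamini-Hochberg adjusted p = 0.0163). It stayed called without chow replicate 4 and day 2 replicate 1 (adjusted p = 0.0272, edgeR quasi-likelihood, Benjamini-Hochberg). Of the 8 fits that left out 1 library, 6 kept the call (largest adjusted p = 0.0707, edgeR quasi-likelihood, Benjamini-Hochberg). On day 4, 12 members were entirely above chow and 2 entirely below, where the shares over all genes were 15.2% and 15%.

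Except for Ndufa8 on day 4, the calls of members, Atp5s included, depended on single libraries. The number called on day 2 was 0 when chow replicate 2 or 4, or day 2 replicate 1, 3 or 4, was left out. Leaving out chow replicate 3 gave 3, leaving out chow replicate 1 gave 17, and leaving out day 2 replicate 2 gave 26. On day 4 it was 3 without chow replicate 2 or day 4 replicate 3, 5 without chow replicate 3, and 2 without chow replicate 4 or day 4 replicate 4. On day 6 it was 0 without chow replicate 4 or day 6 replicate 2, 3 or 4, and 2 without day 6 replicate 1. The share of all genes called in each of these fits is not given here. These counts alone do not show whether the members moved apart from all genes. The nuclear medians held their sign on days 2, 4 and 6 in each of these fits, at 0.22 to 0.35, 0.06 to 0.17 and 0.09 to 0.20.

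NRF1, GABP, YY1, CREB and the estrogen-related receptors are known to bind promoters of nuclear genes for mitochondrial proteins. RefSeq promoter windows (GRCm38.p6, 250 bases before to 50 after the start site) were found by symbol for 71 of the 88 nuclear members. Those without one included Atp5a1, Atp5f1, Atp5mpl, Atp5s, Cox4i1, Cox6c, Cyc1, Ndufa2, Ndufa4l2, Ndufaf6, Ndufb9, Ndufs1, Sdhc, Uqcrb, Uqcrc2 and Uqcrq. Motifs were searched on both strands as exact letters. The palindromic NRF1 motif, GCGCAT followed directly by GCGC, was in 7 of 71 (9.86%), against 2.19% of 11162 tested genes with a window and 1.07% of all 27025 genes in the table. With 1 free base, as GCGCAN followed directly by GCGC, which takes in every match of the first, it was in 19 (26.8%), against 10.7% of tested and 5.19% of all genes. The ETS motif CCGGAAG, bound by GABP, was in 18 (25.4%), against 18.6% and 9.93%, and the YY1 motif AAGATGGCG in 8 (11.3%), against 3.26% and 1.64%. The estrogen-related receptor motif TCAAGGTCA was in 2 (2.82%), against 0.331% and 0.466%, and the CREB motif TGACGTCA in 4 (5.63%), against 3.39% and 2.03%. The GC box GGGCGG (43.7%, against 66.7% and 38.2%) and the CCAAT box CCAAT (42.3%, against 42.4% and 41.1%) were searched alongside. These are counts of letters and not of bound sites. Of the 11 called nuclear members with a window, 5 held the NRF1 motif with 1 free base (45.5%). The palindromic NRF1 motif was in 2 of the 11 (18.2%), the ETS motif in 2 (18.2%) and the YY1 motif in 0. TCAAGGTCA and TGACGTCA were in 1 each, and the GC box and the CCAAT box in 4 each (36.4%). Whether any motif goes with a call was not tested. The promoters of the 5 with the NRF1 motif with 1 free base are shown, 5′ to 3′ on the gene's strand. Capitals mark that motif on either strand, in Atp5g3 also the reverse complement of TCAAGGTCA, and in Ndufa11 also TGACGTCA.
Ndufa8 (chr2:36049289-36049588, minus strand): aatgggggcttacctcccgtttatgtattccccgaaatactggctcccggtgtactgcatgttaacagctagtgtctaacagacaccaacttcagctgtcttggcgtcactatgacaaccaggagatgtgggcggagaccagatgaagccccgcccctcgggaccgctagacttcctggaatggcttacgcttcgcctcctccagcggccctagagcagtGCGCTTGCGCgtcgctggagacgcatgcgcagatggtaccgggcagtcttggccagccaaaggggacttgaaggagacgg
Atp5g3 (chr2:73911277-73911576, minus strand): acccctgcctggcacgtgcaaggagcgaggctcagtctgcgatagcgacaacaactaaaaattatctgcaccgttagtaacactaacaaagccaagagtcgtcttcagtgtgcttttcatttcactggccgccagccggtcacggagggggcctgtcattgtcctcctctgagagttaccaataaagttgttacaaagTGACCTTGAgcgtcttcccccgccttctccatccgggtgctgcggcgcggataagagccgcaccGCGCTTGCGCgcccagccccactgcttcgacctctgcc
Ndufa11 (chr17:56717512-56717811, plus strand): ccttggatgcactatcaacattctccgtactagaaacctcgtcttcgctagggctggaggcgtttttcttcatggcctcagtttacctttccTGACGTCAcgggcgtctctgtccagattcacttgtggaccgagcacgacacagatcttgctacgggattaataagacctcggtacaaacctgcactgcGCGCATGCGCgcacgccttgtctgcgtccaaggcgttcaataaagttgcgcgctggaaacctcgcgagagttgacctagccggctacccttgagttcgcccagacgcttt
Ndufaf4 (chr4:24897833-24898132, plus strand): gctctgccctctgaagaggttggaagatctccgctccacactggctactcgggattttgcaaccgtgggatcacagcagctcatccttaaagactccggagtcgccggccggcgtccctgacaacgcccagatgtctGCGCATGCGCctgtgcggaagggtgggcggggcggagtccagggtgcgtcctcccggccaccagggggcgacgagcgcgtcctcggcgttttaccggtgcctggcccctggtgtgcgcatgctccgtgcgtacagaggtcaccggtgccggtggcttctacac
Atp5o (chr16:91931581-91931880, minus strand): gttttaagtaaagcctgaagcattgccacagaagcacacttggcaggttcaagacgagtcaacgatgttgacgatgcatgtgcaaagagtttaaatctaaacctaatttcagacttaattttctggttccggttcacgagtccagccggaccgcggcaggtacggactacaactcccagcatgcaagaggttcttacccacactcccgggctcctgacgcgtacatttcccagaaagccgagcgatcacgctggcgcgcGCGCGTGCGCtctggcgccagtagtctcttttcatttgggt
Nrf1 itself lay at 18.9 to 20.2 CPM on day 4, against 17.2 to 19.2 CPM on chow, and was called on no day. Of 14 regulators of mitochondrial biogenesis, 2 rose and 2 fell on day 4, beside 18% and 17.3% of all genes, and none was called on days 2, 6 and 14. Esrra, the estrogen-related receptor alpha, rose on day 4 to 41.6 to 70.2 CPM, against 31.6 to 50.8 CPM on chow (log2 change 0.58 ± 0.21; edgeR quasi-likelihood, Benjamini-Hochberg adjusted p = 0.0358). Pprc1, a relative of PGC-1 alpha, rose by 0.81 ± 0.16 on day 4, while the deacetylases Sirt1 and Sirt3 fell by 0.65 and 0.45. Ppargc1a, PGC-1 alpha itself, had a log2 change of -0.10 ± 0.35 on day 4.

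Several subunits of complex IV exist as alternative forms, some known from heart, muscle and brown fat. On day 4 the fitted changes of Cox7a1, Cox8b, Cox4i2 and Ndufa4l2 were larger than those of their usual counterparts, a difference that was not tested. Cox7a1, the heart, muscle and brown fat form of subunit VIIa, had a mean of 3.92 CPM and so lay outside the members. It measured 5.21, 6.72, 7.55 and 7.52 CPM on day 4, against 1.16, 1.74, 1.19 and 1.402 CPM on chow, with no overlap. It rose by 2.31 ± 0.35 on the log2 scale on day 4 (edgeR quasi-likelihood, Benjamini-Hochberg adjusted p = 0.000788), by 1.43 ± 0.35 on day 2 (adjusted p = 0.0302, edgeR quasi-likelihood with Benjamini-Hochberg) and by 1.85 ± 0.34 on day 6 (edgeR quasi-likelihood, Benjamini-Hochberg adjusted p = 0.0244). Its usual counterpart Cox7a2 had 0.32 ± 0.13 on day 2 and 0.26 ± 0.13 on day 4 and was not called. Cox8b, likewise a muscle and brown fat form, had the largest positive log2 change of the 101 members on days 2, 4 and 6. It measured 16.7, 15.6, 15.98 and 16.02 CPM on day 4, against 5.76, 8.60, 11.2 and 3.58 CPM on chow, all above chow, with a log2 change of 1.15 ± 0.53 (edgeR quasi-likelihood, Benjamini-Hochberg adjusted p = 0.0976). On day 2 its libraries measured 7.01, 10.8, 46.8 and 6.78 CPM, with replicate 3 far above the other 3, and the log2 change was 1.41 ± 0.52 (edgeR quasi-likelihood, Benjamini-Hochberg adjusted p = 0.107). Cox8a, its usual counterpart, had 0.34 ± 0.13 on day 2 and 0.06 ± 0.13 on day 4.

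**Figure D4:**
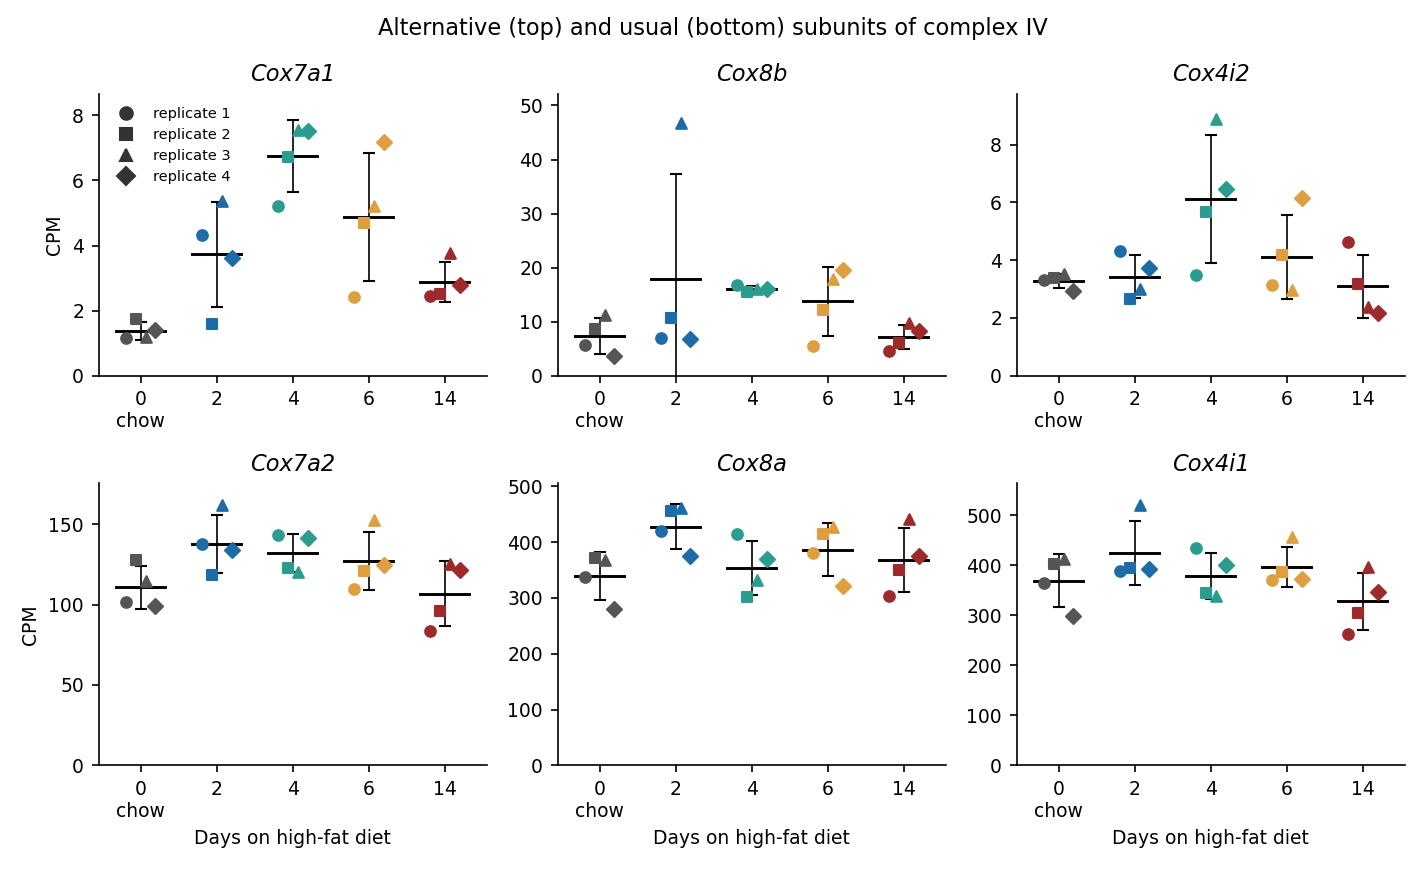
CPM of 3 alternative subunits of complex IV (top; Cox7a1 and Cox4i2 lie under the 5 CPM limit) and their usual counterparts (bottom), by days on high-fat diet (chow at 0); symbols are replicates, lines means and bars the SD over 4 libraries, cut off at 0. Cox7a1 lies at 5.21 to 7.55 CPM on day 4 and 1.16 to 1.74 CPM on chow, and Cox8b on day 2 is spread by replicate 3 at 46.8 CPM.

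Cox4i2, a form of subunit IV known from lung and low oxygen, measured 3.50, 5.67, 8.88 and 6.47 CPM on day 4, against 3.32, 3.37, 3.52 and 2.93 CPM on chow. It rose by 0.87 ± 0.29 (edgeR quasi-likelihood, Benjamini-Hochberg adjusted p = 0.0263), with replicate 1 inside the chow range, while Cox4i1, the usual form, had 0.04 ± 0.14. Ndufa4l2, a low-oxygen relative of the complex IV subunit Ndufa4, measured 8.46, 18.7, 21.7 and 14.3 CPM on day 4, against 10.1, 6.51, 9.87 and 7.70 CPM on chow. Replicate 1 again lay inside the chow range, and the log2 change was 0.84 ± 0.26 (edgeR quasi-likelihood, Benjamini-Hochberg adjusted p = 0.0175); the exons overlap Shmt2 on the other strand. Ndufa4 itself had 0.03 ± 0.13 on day 4. Cox6b2, a testis form, fell on day 4 by 0.99 ± 0.34 from a low level, at 0.654 to 2.00 CPM against 1.52 to 3.08 CPM on chow (edgeR quasi-likelihood, Benjamini-Hochberg adjusted p = 0.0312). Cox7a2l had a log2 change of -0.17 ± 0.07 on day 4 (edgeR quasi-likelihood, Benjamini-Hochberg adjusted p = 0.0501). Cox7a1 and Cox8b are also on the list of 9 brown fat markers, of which 7 were tested: 1 rose on day 2, Cox7a1 itself, and 3 rose on day 4 and 3 on day 6. The markers Cidea and Ppargc1a had log2 changes of -0.36 and -0.10 on day 4, neither called. The markers summed to 28.1 to 87.6 CPM on day 2, 47.3 to 62.6 CPM on day 4 and 24.9 to 49.7 CPM on day 6, against 21.8 to 33.0 CPM on chow; the highest day 2 sum was that of replicate 3, where Cox8b alone gave 46.8 CPM. Ucp1, the defining uncoupling protein of brown fat, reached at most 2.57 CPM, in day 2 replicate 4, and at most 0.0759 CPM on chow. Of 8 endothelial markers, 5 rose on day 4. They summed to 1003 CPM in day 4 replicate 1 and 1573 to 1862 CPM in the other 3 libraries, against 851 to 1107 CPM on chow, so replicate 1 lay inside the chow range here as it did for Cox4i2 and Ndufa4l2. The part of these cells in the alternative forms was not tested.

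The mitochondrially encoded genes took 5.38% ± 0.901 of all counts after 2 days, 5.41% ± 0.901 after 4, 6.08% ± 0.856 after 6 and 4.72% ± 0.734 after 14, against 5.13% ± 0.567 on chow (SD, n = 4 each), with overlap between each day and chow. Their median log2 change was 0.16 after 2 days, 0.09 after 4, 0.29 after 6 and -0.11 after 14. On scaling by library size only these were 0.05, -0.01, 0.16 and -0.21, so the day 4 value changed sign. The median of the mitochondrially encoded minus that of the nuclear members was -0.14 after 2 days, -0.03 after 4, 0.13 after 6 and -0.08 after 14. The same difference, taken per library, had a pooled SD of 0.24 between libraries of a group, which is larger than each of these values. That SD is the spread of single libraries and not the error of a difference between groups. No test was run on this summary. The day 4 and day 14 differences took either sign when single libraries were left out, and the day 6 difference was -0.02 without chow replicate 1.

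mt-Nd1, a core subunit of the proton-pumping arm of complex I, was the 1 mitochondrially encoded gene called by edgeR, on day 4. DESeq2 called it on days 2, 4 and 6 and mt-Nd2 on days 4 and 6, and limma-voom with sample quality weights called mt-Nd1 on days 2 and 4 and mt-Nd2 on day 6. mt-Nd1 measured 8259, 6058, 7625 and 6964 CPM on day 4, against 5418, 4680, 5607 and 4592 CPM on chow. No day 4 library fell within the chow range, and the log2 change was 0.51 ± 0.18 (edgeR quasi-likelihood, Benjamini-Hochberg adjusted p = 0.0369). It lay entirely above chow on days 2 and 6 as well, with log2 changes of 0.60 ± 0.18 (adjusted p = 0.0659, edgeR quasi-likelihood with Benjamini-Hochberg) and 0.49 ± 0.18 (adjusted p = 0.114, edgeR quasi-likelihood, Benjamini-Hochberg). The day 4 call was kept in 2 of 8 fits without 1 library and in 10 of 12 other alternatives. mt-Nd2, its neighbour on the mitochondrial genome, had 0.68 ± 0.20 on day 6, the largest change of the 13 genes on that day, at 4333, 8137, 6254 and 6147 CPM against 3884, 3710, 4473 and 3426 CPM on chow (edgeR quasi-likelihood, Benjamini-Hochberg adjusted p = 0.0559). Replicate 1 of day 6 lay inside the chow range. mt-Cytb, the catalytic cytochrome b of complex III, had 0.49 ± 0.20 on day 6 and 0.15 ± 0.20 on day 2. mt-Co1, the oxygen-reducing subunit of complex IV and the most abundant of the 13, averaged 21459 ± 3475 CPM on day 6 and 17169 ± 3154 CPM on chow (SD, n = 4 each), a log2 change of 0.32 ± 0.20 (edgeR quasi-likelihood, Benjamini-Hochberg adjusted p = 0.339).

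**Figure D5:**
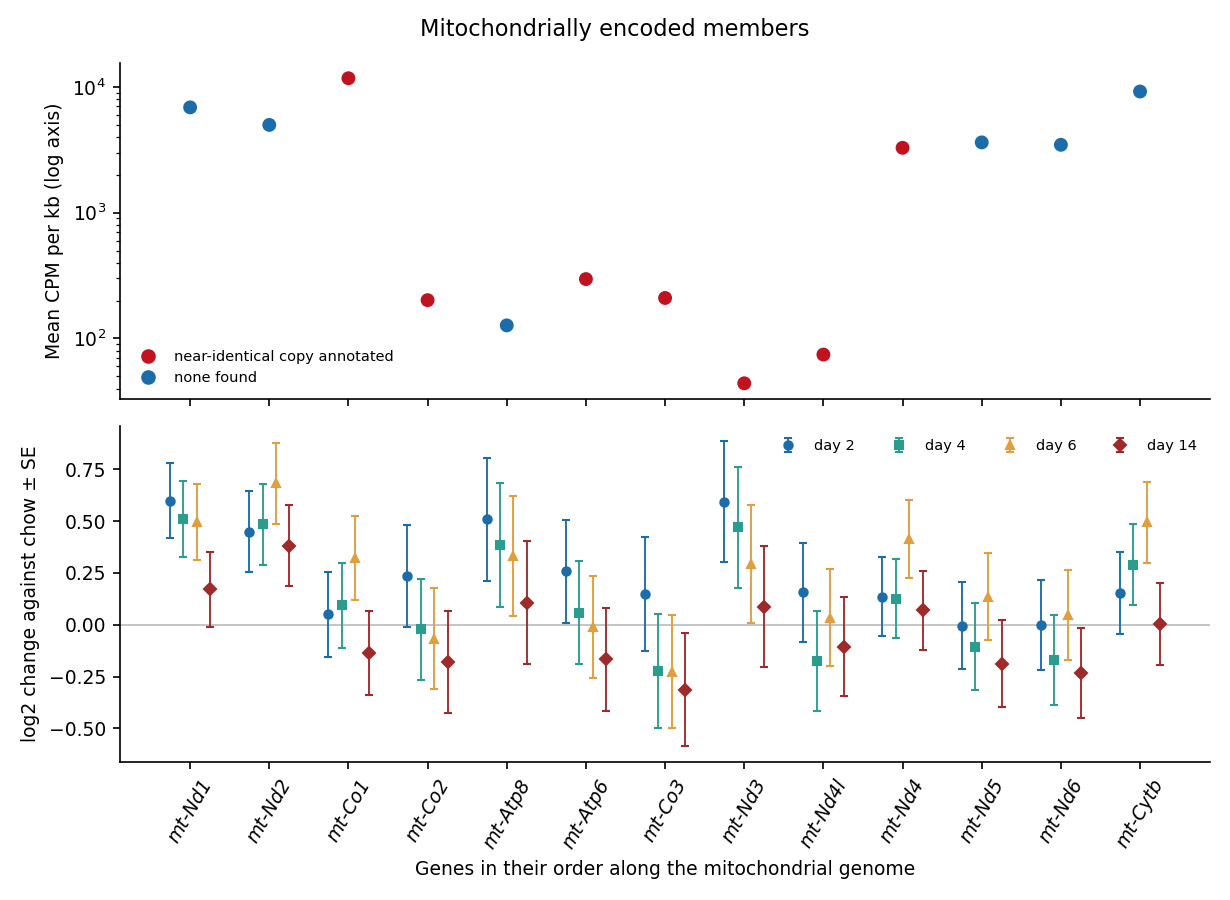
Mean level per kilobase over all 20 libraries (top, log axis; red where another annotated gene is at least 97% identical over at least 100 bases) and log2 change against chow with its SE on days 2, 4, 6 and 14 (bottom) of the 13 mitochondrially encoded members, in their order along the genome. The 6 genes from mt-Co2 to mt-Nd4l, without mt-Co1 and mt-Nd4, lie at 44.0 to 297 CPM per kb and the other 7 at 3276 to 11697 CPM per kb.

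Per length, the 13 genes fell into 2 sets. mt-Nd1, mt-Nd2, mt-Co1, mt-Nd4, mt-Nd5, mt-Nd6 and mt-Cytb had 3276 to 11697 CPM per kb, while mt-Co2, mt-Atp8, mt-Atp6, mt-Co3, mt-Nd3 and mt-Nd4l, which lie next to each other on the genome, had 44.0 to 297 CPM per kb. Of these 6 genes, 5 match another annotated gene at 97% identity or more over 98.99% to 99.87% of their transcript. For mt-Atp8 no match was found, but only annotated transcripts were searched, so a copy outside them would be missed. mt-Co1 is matched over 100% of its transcript by 2 other genes and is nonetheless the highest, and mt-Nd4 is matched over 63.6%. How reads with several matches were counted is not given in the sources used here, so the levels of these genes are uncertain, and the part of the copies in the low levels was not tested. mt-Nd5 and mt-Nd6 overlap on opposite strands, and reads within the overlap cannot be told apart without strand. The strand setting is not given, so reads from the opposite strand may also be in the mt-Nd6 count outside the overlap. The level of mt-Nd6 (3460 CPM per kb), and with it its place in the high set, is therefore uncertain. The median of the low set relative to chow was -0.93, -0.20, -0.22 and 0.62 in the 4 day 14 libraries, against -0.45, 0.34, 0.23 and -0.05 in the 4 chow libraries. For the high set the values were -0.29, -0.19, 0.28 and 0.19 on day 14, against -0.18, 0.10, 0.25 and -0.18 on chow. On day 6 the high set had a median log2 change of 0.41, with all 7 genes positive, and the low set 0.01, with 3 of 6 positive. The split into 2 sets was made after the levels were seen, and no test was run on it. In nuclear genes, the median level per length was 50.8 CPM per kb for complex I, 98.5 for complex II, 110 for complex III, 105 for complex IV and 59.2 for complex V, with Cox8a at 606 and Atp5b at 449.9 CPM per kb as the highest of complexes IV and V.

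Between successive times no member was called, from day 2 to 4, from day 4 to 6 or from day 6 to 14, where 2.4%, 0% and 0% of all genes were called by edgeR; 11, 3 and 7 of the 101 members had an unadjusted p under 0.05, as did 22.3%, 16.3% and 3.33% of all genes. For day 4 against day 2, DESeq2 called 1 member and limma-voom with sample quality weights 28 (22.2% of all genes), and the edgeR fit called 6 without day 4 replicate 1 (14.5% of all genes). For day 6 against day 4 the weighted fit called 4, and its share over all genes is not given here. Against day 2, 10 of 101 members had a positive change on day 4 (median -0.16), as did 48.9% of all genes. Day 6 had 57 positive against day 4, where all genes had 50.4%. On day 4 the member with the smallest adjusted p against day 2 was Ndufs7, an iron-sulfur subunit of complex I, with 79.0, 47.9, 55.5 and 63.0 CPM on day 4 and 92.8, 83.4, 88.4 and 88.7 CPM on day 2. Its groups did not overlap, as those of 3 members in all and of 3.16% of all genes in that direction, and the log2 change was -0.51 ± 0.15 (edgeR quasi-likelihood, Benjamini-Hochberg adjusted p = 0.0681). Against day 6, 3 of 101 members had a positive change on day 14 (median -0.20), where all genes had 48.7%, and all 13 mitochondrially encoded genes were lower. No member's day 14 libraries lay entirely below those of day 6, as those of 0.642% of all genes did. Day 14 replicate 1, the lowest library in 52 of 88 nuclear members and in 9 of 13 mitochondrially encoded ones, was part of each of these values; leaving out single libraries gave nuclear medians of -0.27 to -0.11. The test of any difference among the 5 groups called 10 members, all nuclear (9.9%, against 19.6% of all genes): Ndufs8, Cox5b, Ndufa8, Atp5g3, Ndufb3, Cox7c, Cox7b, Atp5o, Cox6b1 and Ndufb6. Without chow replicate 4 and day 2 replicate 1 it called none of the members and 4.93% of all genes, and 37 members had an unadjusted p under 0.05 with all libraries in the fit, as did 37.6% of all genes. Its count also turned on single libraries, and the share of all genes called in those fits is not given here. It was 18 without day 2 replicate 2, 19 without day 14 replicate 3 and 0 without day 4 replicate 4. Without chow replicate 2 or 4, day 2 replicate 3, day 4 replicate 2 or day 14 replicate 2 it was 2 each time. The count was 3 without day 2 replicate 1, 5 without day 14 replicate 1, and 4 without chow replicate 3, day 2 replicate 4, day 4 replicate 3 or day 6 replicate 2.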

How the data were processed

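The values are raw counts of reads per gene, deposited by the authors as whole numbers, a column for each library. Tools listed in the submitters' processing notes are STAR, featureCounts, CASAVA, R (3.0) and limma, without their roles. The genome build, annotation, strand setting and treatment of reads with several matches are not given in the sources used here. Each column was assigned through the library name in its sample's labels, and symbols were found for 37607 of 39179 IDs. Totals of 1916829 to 38832429 counts limit the precision most in day 2 replicate 1.

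From these counts, in R 4.3.3, edgeR 4.0.16 kept 15254 genes (filterByExpr, minimum count 10, minimum total 15), scaled libraries with TMM and tested each group by the quasi-likelihood test with robust dispersion. One model covered the 20 libraries and held only the group, with 15 residual degrees of freedom and a common coefficient of variation of 0.209. P-values were adjusted by Benjamini-Hochberg over all genes tested, and calls were made at adjusted p under 0.05. SEs were derived from the F statistic. CPM are per TMM-adjusted library total, and levels per length use merged exons of the reference annotation. The p-values rest on the spread between libraries within groups, pooled over all groups of the model and moderated across genes. The labels call the 4 libraries of a group biological replicates. Near-identical copies were searched with blastn 2.17.0 among annotated transcripts only. The steps were tested on simulated counts.

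The members and lists were chosen with earlier results of these data known. Genes were named by rule: all mitochondrially encoded genes, up to 3 called nuclear members per complex and day (or the most abundant), alternative subunits, the 5 smallest adjusted p of the test of any difference, the largest changes, up to 4 called genes per list, and the 3 members nearest the 5 CPM limit on each side. Genes named outside it were chosen after their values were seen, such as Cyc1, Nrf1, Ppargc1a and Ndufaf3. Alternatives were DESeq2 size factors, library totals only, TMM without the mitochondrially encoded genes, no filter and a stricter one, DESeq2 1.42.0, limma-voom (limma 3.58.1) plain or with sample quality weights, a fit of the compared groups alone, a block for the replicate number, the library number as a covariate, other thresholds, and leaving out libraries.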

Additional observations from a re-analysis of the deposited data

Results flagged for a closer look

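Of 135 groups of 4 values examined for a single library far from the other 3, 6 had one, where chance gives about 1 in 20 groups. In the median log2 level of the 88 nuclear members relative to chow, chow replicate 4 lay at -0.18, where the other chow libraries lay at 0.05 to 0.08. In the 36 nuclear subunits of complex I it lay at -0.18 as well, where the others lay at 0.05 to 0.08. This is the library that held 213 CPM of ductal epithelial markers and the lowest sum of fat cell markers, and the part of these in its low levels was not tested. In the 3 mitochondrially encoded subunits of complex IV, day 2 replicate 3 lay at 0.36, where the other day 2 libraries lay at 0.12 to 0.16. Atp5g3 had 431.5 CPM in day 6 replicate 3, where the others had 326 to 337 CPM. Ndufb6 had 45.1 CPM in day 2 replicate 2, where the others had 63.1 to 64.4 CPM. Ndufaf4 had 25.1 CPM in day 6 replicate 3, where the others had 18.3 to 18.9 CPM.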

How the results depend on the processing

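The number of members called moved with most choices, in the order day 2, day 4, day 6 and any difference among the 5 groups where several are given. It was 18 for any difference with library totals only. Without a filter it was 0 on day 2, 0 on day 6 and 5 for any difference. DESeq2 called 22 on day 2, 3 on day 6, 1 for day 4 against day 2 and 26 for any difference, and limma-voom 4 on day 2 and 5 for any difference. With sample quality weights limma-voom called 22, 13, 2 and 61, with 28 for day 4 against day 2 and 4 for day 6 against day 4. With only the groups compared in the fit it was 1 on day 2, 13 on day 4 and 0 on day 6. With the library number as a covariate it was 1 on day 2, 0 on day 6, 6 for any difference and 1 for day 4 against day 2. At an adjusted p under 0.01 it was 0, 1, 0 and 0. Without both chow replicate 4 and day 2 replicate 1 it was 0, 2, 0 and 0. With members of at least 1 CPM it was 2 on day 6. Leaving out 1 library gave 0 to 26 on day 2, 2 to 11 on day 4, 0 to 2 on day 6, 0 to 6 for day 4 against day 2 and 0 to 19 for any difference. The share of all genes called is not given beside these counts, and it also moved between fits. The counts are therefore no result about the members alone. The cause of these shifts was not tested. No named gene changed direction while called. When 1 library was left out, 2969 of 3296 gene results kept their side of the threshold, 260 lost a call and 67 gained one. Over the other alternatives, 4631 of 4925 kept it, 184 lost a call and 110 gained one. These include the fit without both chow replicate 4 and day 2 replicate 1.

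With the replicate number as a replicate block the count was 13 on day 2, 13 on day 4 and 16 for any difference. The share of all genes called in that fit is not given here, so these counts are no result about the members alone. The labels state no pairing, and within each group the replicate number rises with the library number. Same-numbered libraries of different groups deviated with correlations across genes of -0.186 to 0.516 (median 0.0376), 12 of 40 over 0.1, against 30 of 120 among different numbers (median -0.0103); 10 of 20 libraries correlated best with their own number, a hint from the data only. Low depth limits genes such as Atp5s most.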

Other observations

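Of all genes tested, 4.39% were called after 2 days, 35.3% after 4, 3.45% after 6 and 1.18% after 14, and the counts of the lists are to be read against these shares. Of 76 tested genes of the mitochondrial ribosome, 3 rose on day 2, 24 on day 4 and 4 on day 6, with none lower and none called on day 14. The medians were 0.25, 0.22, 0.18 and 0.06 on the log2 scale. Mrps6 of the small subunit had 75.9 to 109 CPM on day 4, against 34.3 to 54.1 CPM on chow, a log2 change of 1.02 ± 0.22 (edgeR quasi-likelihood, Benjamini-Hochberg adjusted p = 0.00273). The 83 genes of the cytosolic ribosome had 3 higher and 25 lower on day 4 (18% and 17.3% of all genes), 12 lower on day 6 and 3 lower on day 14. Of 25 genes of mitochondrial DNA upkeep and transcription, Fastkd5, which acts in processing mitochondrial RNA, rose on day 4 by 0.99 ± 0.23, Tefm, the transcription elongation factor, rose by 0.51 ± 0.17, and Hsd17b10, a part of mitochondrial RNase P, fell by 0.63 ± 0.14. Tfam, the packaging factor of mitochondrial DNA, was called on no day, with log2 changes between -0.01 and 0.21.

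Among 10 tested carriers and uncoupling proteins, Ucp3 rose on each of the 4 days. It had 35.4 to 66.0 CPM on day 2 and 64.5 to 90.4 CPM on day 4, against 25.7 to 33.2 CPM on chow. Its log2 changes were 0.88 after 2 days, 1.41 after 4 days, 1.065 after 6 days and 1.05 after 14 days. Vdac1, the main pore of the outer membrane, rose on day 4 by 0.42 ± 0.12, while Tspo, a cholesterol-binding protein of that membrane, fell by 0.56 ± 0.13. The creatine kinase gene Ckmt1 fell by 1.99 ± 0.64 from under 2 CPM. Of 15 genes of mobile carriers and coenzyme Q synthesis, 1 rose on day 2, and 3 rose and 1 fell on day 4; Coq10b rose on day 4 by 0.78 ± 0.14 and Coq8a fell by 0.99 ± 0.29.

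Of the marker lists, 8 of 8 genes of dividing cells rose on day 4, with sums of 51.6 CPM in replicate 1 and 425 to 526 CPM in the other 3 libraries, against 12.6 to 37.8 CPM on chow. No macrophage, skeletal muscle or blood marker was called against chow on any day. Of 3 tested ductal epithelial markers, 1 fell on day 2, 3 on day 4 and 1 on day 6. Mesothelial markers fell in 9 of 9 genes on day 4 and 2 of 9 on day 6, and none was called on day 14. Of 9 fat cell markers, 1 rose on each of days 2, 6 and 14, and on day 4, 2 rose and 2 fell.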
